A study of Homo sapiens with 17 samples.

Results

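The genes followed were ARHGAP36 and 8 core genes of the Hedgehog pathway, namely PRKACA, SMO, PTCH1, HHIP, SUFU, GLI1, GLI2 and GLI3. They are 9 of the 60662 genes in both deposited count tables, each has 1 row in each table, and all 9 passed the filter on low counts in every comparison. ARHGAP36 was chosen by its fall at 6 days of all-trans retinoic acid (ATRA). Its differences in comparisons that use culture libraries are thus given as a description, with no test and no call counted. The other 8 genes were taken by name for their place in the pathway, with earlier results of these data known.

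The RNA came from the human neuroblastoma line CHP-134, an established line whose MYCN gene is amplified, grown in culture or as tumors in mice. The culture series held 8 libraries: 2 from cells given the solvent DMSO, and 2 each after 1, 3 and 6 days in 2 µM ATRA. The tumor series held 9 libraries from CHP-134 cells that carried luciferase and grew under the skin of athymic nude mice. Of these, 5 were from control mice and 4 from mice given RA as 13-cis-RA. The labels call the controls untreated, and the study's text calls them vehicle-treated. Each dose was 25 mg/kg by oral gavage, with 2 doses per day. All samples thus come from 1 cell line, the host lacks a thymus but keeps its other cells, and no label ties the culture replicates to separate cultures, so the p-values measure the spread between these libraries. The library kit differed between culture and tumors, so kit, host and growth in a mouse cannot be told apart there. According to the study most CHP-134 cells die in ATRA by the last time point. The last libraries thus hold RNA of surviving cells, and loss of cells and change within cells cannot be told apart in these bulk samples.

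Library totals ran from 31607070 to 39422937 counts in culture and from 17266581 to 29078885 in tumors. Levels are given as CPM, the counts of a gene scaled to the size of its library, on a common scale of all 17 libraries, and a gene was called changed when it differed more than 2-fold with an adjusted p under 0.05 in edgeR's quasi-likelihood test. Of 8 neuroblastoma markers, 6 reached a mean of 1 CPM in DMSO cells and 7 in control tumors, with the noradrenaline synthesis enzymes TH and DBH below it in DMSO cells and TH below it in control tumors. The 4 endothelial markers summed to 0.169 to 0.93 CPM in culture and 1.03 to 4.05 CPM in tumors, and the 4 leukocyte markers to 0.198 to 0.642 CPM and 1.55 to 3.73 CPM. The 4 Schwann cell markers, of which SOX10 had no count in culture, summed to 7.72 to 13.8 CPM in culture and 2.84 to 4.6 CPM in tumors.

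Hedgehog ligands bind PTCH1, a membrane receptor that in their absence holds the transducer SMO inactive. Active SMO in the primary cilium frees the GLI transcription factors from SUFU and from phosphorylation by protein kinase A (PKA). PKA marks GLI2 and GLI3 for processing, and GLI3 in particular is cut to a repressor, while full-length GLI2 is the main activator and GLI1 is both an activator and a target gene. ARHGAP36 binds the catalytic subunit of PKA, which PRKACA encodes, inhibits it and promotes its degradation, and so can switch GLI on without ligand. PTCH1 and HHIP, a membrane protein that binds ligand, are themselves induced by the pathway and feed back on it.

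The promoters of ARHGAP36, PTCH1 and HHIP are shown because ARHGAP36 carried the steepest fall and PTCH1 and HHIP are the feedback targets of GLI. PTCH1 had 5 windows, and the one shown is the one with a match. The sequences are RefSeq's (GRCh38.p14), the 250 bases before a start site on the strand of the gene, and 7 of the 9 members had 14 such windows in all. Each was searched on both strands for the GLI motif GACCACCCA, for the cAMP response element TGACGTCA, which PKA-regulated factors bind, and for pairs of GTTCA or GGTCA with 6 bases between them, a form of retinoic acid response element. Capitals mark a match:
ARHGAP36, chrX:131058096-131058345 (+): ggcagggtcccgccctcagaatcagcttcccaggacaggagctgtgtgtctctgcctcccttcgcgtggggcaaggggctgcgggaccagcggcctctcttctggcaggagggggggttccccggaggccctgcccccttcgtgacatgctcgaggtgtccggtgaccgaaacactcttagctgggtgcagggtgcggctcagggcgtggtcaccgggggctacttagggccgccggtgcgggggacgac
ARHGAP36, chrX:131082185-131082434 (+): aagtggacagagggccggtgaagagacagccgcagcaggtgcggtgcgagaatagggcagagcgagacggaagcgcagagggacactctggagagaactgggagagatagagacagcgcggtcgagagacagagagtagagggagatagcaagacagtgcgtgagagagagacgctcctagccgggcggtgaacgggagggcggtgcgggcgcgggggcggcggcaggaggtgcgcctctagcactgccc
PTCH1, chr9:95509267-95509516 (-): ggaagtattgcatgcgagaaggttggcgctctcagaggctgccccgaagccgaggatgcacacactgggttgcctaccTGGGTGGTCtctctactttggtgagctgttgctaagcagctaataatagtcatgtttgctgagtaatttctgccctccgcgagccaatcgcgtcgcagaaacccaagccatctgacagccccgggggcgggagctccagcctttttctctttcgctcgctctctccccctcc
HHIP, chr4:144645906-144646155 (+): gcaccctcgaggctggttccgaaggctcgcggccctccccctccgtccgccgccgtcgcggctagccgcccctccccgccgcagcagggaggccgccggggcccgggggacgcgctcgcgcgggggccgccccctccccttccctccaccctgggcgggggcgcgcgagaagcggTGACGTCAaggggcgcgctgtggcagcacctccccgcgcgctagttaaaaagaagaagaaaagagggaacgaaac

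Among the 14 windows, 1 of the 5 of PTCH1 held the GLI motif, 172 bases before the start site, and the window of HHIP held the cAMP response element, 75 bases before it. The same searches matched 0.199% of 35116 promoter windows for the GLI motif, 1.646% for the cAMP response element and 0.148% for the retinoic acid pairs. Neither ARHGAP36 window held a match to any of these letters, and the retinoic acid pairs matched 0 of the 14 windows. GLI1 and GLI3 had no entry.

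ARHGAP36 (ENSG00000147256.12, chromosome X, 131058346 to 131089885, plus strand) was the most abundant of the 9 genes per length in DMSO cells and the one that fell furthest under ATRA. It stood at 229 and 227 CPM in DMSO, 148 and 147 CPM after 1 day, 30.2 and 28.1 CPM after 3 days, and 1.62 and 1.25 CPM after 6 days. The 4 groups did not overlap, and the level was lower at each later time. The log2 difference from DMSO was -0.61 ± 0.028 (SE) at 1 day, -2.94 ± 0.036 at 3 days and -7.34 ± 0.061 at 6 days, all against the same 2 DMSO libraries. At 6 days this was a 162-fold difference and the fifth lowest of the 20237 genes tested, with the homeobox gene MSX2 just below it at -7.99 and the gene AC010422.6 just above it at -7.26.

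Between 1 and 3 days, libraries that the choice of ARHGAP36 did not use, it fell 5-fold (log2 -2.32 ± 0.037). Leaving out any 1 of these 4 libraries gave log2 differences from -2.38 to -2.27. No test is given, because the fit took its spread from all culture libraries, among them those that chose the gene. Between 3 and 6 days it went down by a further 21.2-fold, given without a test because the 6 day libraries chose the gene.

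In tumors ARHGAP36 was at 135, 101, 148, 133 and 170 CPM in the 5 controls and at 36.1, 60.1, 69.1 and 107 CPM in the 4 RA tumors. Of the RA tumors, 3 lay below every control and replicate 4 lay above the lowest control. The mean was 137 ± 24.9 CPM (SD, n = 5) in controls and 68.2 ± 29.6 CPM (SD, n = 4) under RA, a log2 difference of -1.01 ± 0.3, which did not pass the test (edgeR adjusted p 0.161). The call depended on the setting. DESeq2 called the same difference (adjusted p 0.0285), and so did edgeR without RA tumor replicate 4 (log2 -1.31, adjusted p 0.0322). An exact permutation of the 9 tumor libraries on log2 CPM was run on this gene alone after its values were seen. It gave a two-sided p of 0.0159 over 126 splits, of which the smallest possible is 0.0079. That p is not adjusted for other genes, so it is not a call. The unadjusted p of edgeR was 0.00979, and 15.4% of all genes had an unadjusted p under 0.05.

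Ordered by mean level, ARHGAP36 ran from DMSO cells (228 CPM) through 1 day (147 CPM), control tumors (137 CPM), RA tumors (68.2 CPM) and 3 days (29.1 CPM) to 6 days (1.43 CPM). The 1 day libraries lay inside the range of the control tumors, and control and RA tumors overlapped. All other neighbours in this order had ranges that did not meet.

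**Figure D1:**
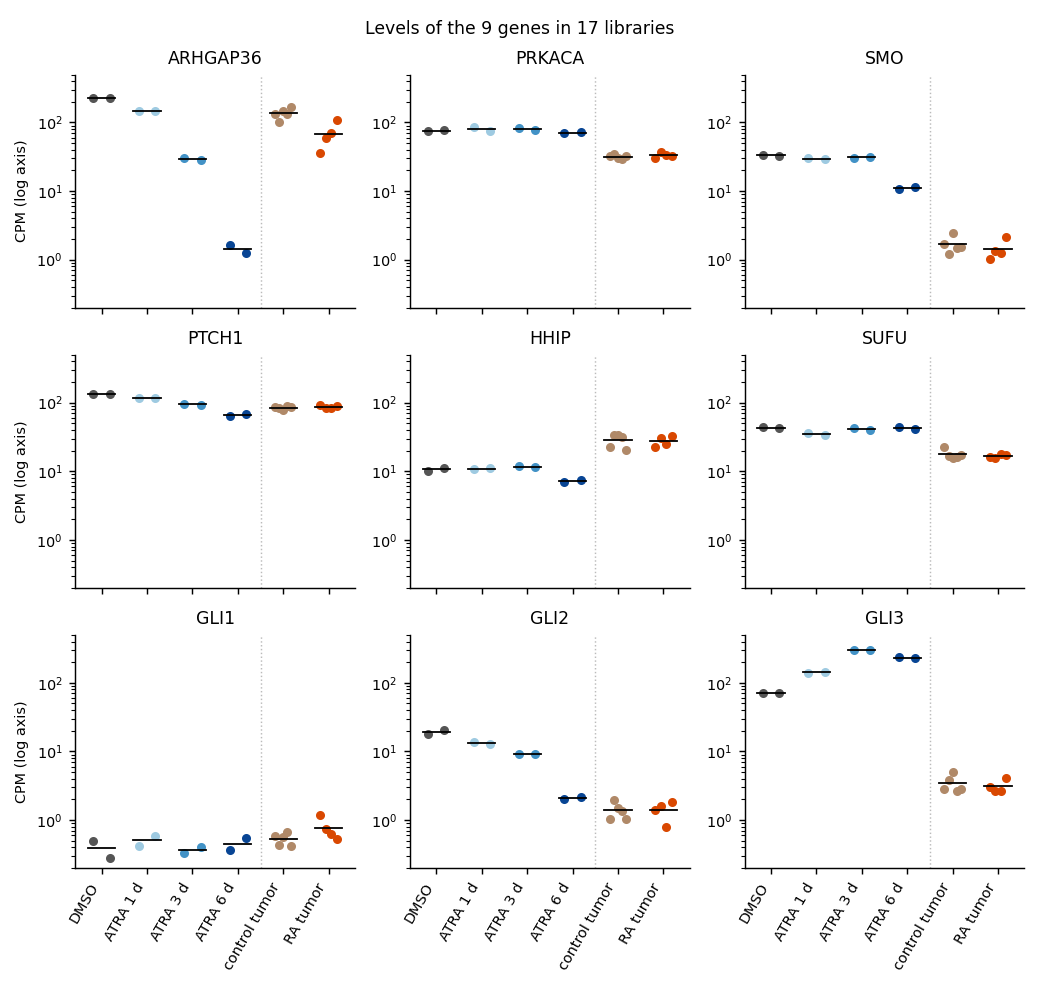
Level of each of the 9 genes in CPM (log axis) in the 17 libraries, 1 point per library and a bar at the group mean, with culture groups left of the dotted line and tumors right of it. ARHGAP36 goes from 228 CPM in DMSO to 1.43 CPM at 6 days while PRKACA stays between 69.4 and 84.6 CPM in culture, and GLI2, GLI3 and SMO are at 5.03 CPM or less in every tumor.

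PRKACA (chromosome 19, 14091688 to 14118084, minus strand), the catalytic subunit of PKA that ARHGAP36 antagonises, was nearly level in culture. It was at 73.9 and 76.9 CPM in DMSO, 84.6 and 75.8 CPM after 1 day, 83.1 and 78.2 CPM after 3 days, and 69.4 and 72 CPM after 6 days. No time point was called, and the 6 day difference was -0.13 ± 0.045 on the log2 scale (edgeR adjusted p 0.0176), under the 2-fold limit. Tumors held less: 29.3 to 35 CPM in controls, with a median of 32 CPM, and 30.3 to 37 CPM under RA, with all 9 tumors below all 8 culture libraries. The exons of PRKACA share 153 bases with SMIM46 on the same strand, and its deposited counts were whole numbers in every library.

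The ratio of ARHGAP36 to PRKACA per kb of exon, a comparison within each library, was 7.39 and 7.05 in DMSO, 4.18 and 4.62 after 1 day, 0.868 and 0.858 after 3 days and 0.0557 and 0.0414 after 6 days. It ran from 6.91 to 12.5 in control tumors and from 2.84 to 7.77 in RA tumors. In culture the antagonist thus went from above to below its target in RNA level, whereas in all 9 tumors it was the more abundant.

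The wider list of 12 PKA subunits and inhibitors held 12 tested genes, of which 1 rose and 0 fell at 6 days, where 18.8% of all 20237 genes tested were called higher and 12.3% lower. The median log2 difference was 0.0912 against 0.041 over all genes. The gene that rose was PKIA, a small protein inhibitor of PKA, from 73.2 and 76.6 CPM to 170 and 173 CPM (log2 1.16, edgeR adjusted p 1.64e-28). The 12 genes had no call at 1 or 3 days (2.74% and 7.87% of all genes) and none between RA and control tumors (0.289%). In tumors only PRKAR1B of this list had an adjusted p under 0.05, below the 2-fold limit (log2 0.35, edgeR adjusted p 0.0308). It was at 21.2 to 26 CPM in controls and 29.7 to 30.9 CPM under RA. Another catalytic subunit gene, PRKACB, went from 9.96 to 11.3 CPM in DMSO to 17.9 to 19.5 CPM at 6 days without passing the 2-fold limit (log2 0.79).

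SMO (chromosome 7, 129188633 to 129213545, plus strand), the transducer, kept its level for 3 days and then fell. It was at 33.3 and 32.9 CPM in DMSO, 30.4 and 28.9 CPM after 1 day, 30.3 and 31.6 CPM after 3 days and 10.7 and 11.6 CPM after 6 days. Only the 6 day libraries stood apart by more than 2-fold. The fall was 3.04-fold from DMSO (log2 -1.60 ± 0.063, edgeR adjusted p 5.17e-23) and 2.91-fold from day 3 (log2 -1.54 ± 0.064, adjusted p 5.4e-22).

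PTCH1 (chromosome 9, 95442980 to 95517057, minus strand), the receptor and feedback target, declined at each step. It was at 134.5 and 133.8 CPM in DMSO, 116 and 116 CPM after 1 day, 96.7 and 93.9 CPM after 3 days and 64.7 and 67.6 CPM after 6 days. The groups did not overlap. The decline passed the 2-fold limit only at 6 days (log2 -1.05 ± 0.032, edgeR adjusted p 1.16e-26), after -0.19 at 1 day and -0.46 at 3 days.

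HHIP (chromosome 4, 144646156 to 144745271, plus strand), the decoy for ligand, was at 9.99 and 11.3 CPM in DMSO, 10.8 and 11.1 CPM after 1 day, 11.9 and 11.4 CPM after 3 days and 7.04 and 7.47 CPM after 6 days. The 6 day libraries were the lowest, but the difference stayed under 2-fold (log2 -0.58 ± 0.094, edgeR adjusted p 9.47e-07). Exons of HHIP share 813 bases with the antisense gene HHIP-AS1, at 0.961 to 2.65 CPM over the 17 libraries, and those of PTCH1 share 711 bases with an antisense gene, at 3.83 to 8.37 CPM. The deposited counts were not whole numbers for PTCH1 in 9 tumor libraries and for HHIP in 8, and for both genes in 0 culture libraries. Reads may thus have been split between these pairs in tumors, and the strand setting of the counting is not given in the sources used here. The part of this in differences between tumors and culture was not tested.

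**Figure D2:**
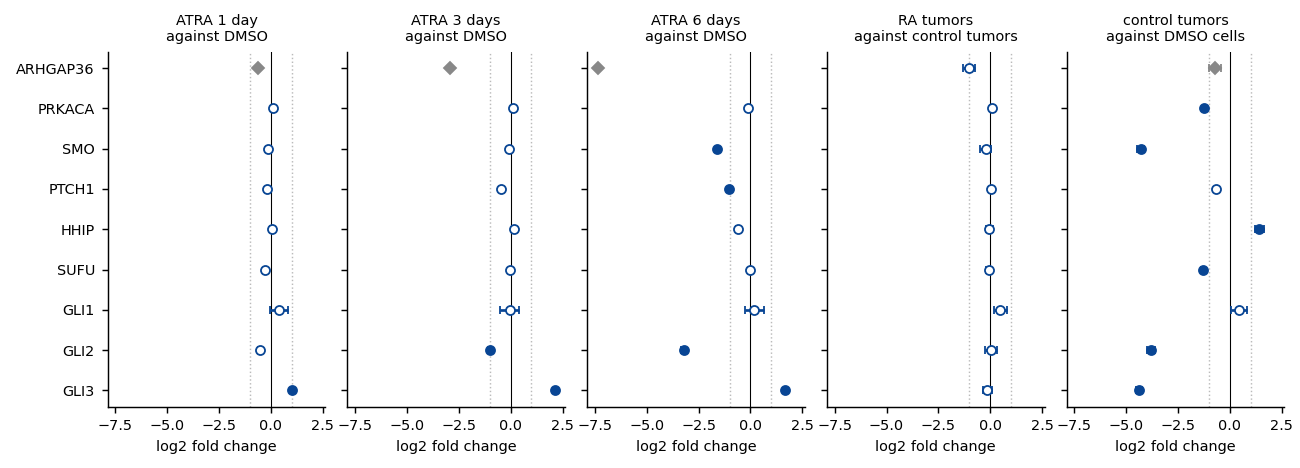
Log2 fold change (horizontal axis, bars SE) of the 9 genes in 5 comparisons, filled circles where called and open where not, with dotted lines at 2-fold and grey diamonds for ARHGAP36 against DMSO, where it has no test. At 6 days 3 genes are filled to the left (SMO, PTCH1 and GLI2) and GLI3 to the right, and no gene is filled in RA tumors against control tumors.

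Receptors and coreceptors as a list lay below zero at 6 days. Of 8 tested, 0 rose and 4 fell, against 12.3% of all genes called lower, and the median was -0.918 against 0.041 over all genes. Besides SMO and PTCH1, these were GAS1 and CDON, cell surface proteins that help ligand bind PTCH1. GAS1 went from 9.03 and 9.33 CPM in DMSO to 1.29 and 1.38 CPM at 6 days (log2 -2.81, edgeR adjusted p 5.58e-19). CDON went from between 51.5 and 55.9 CPM to between 15.9 and 17 CPM (log2 -1.74, adjusted p 4.83e-24). Both had already passed the test at 3 days, at log2 -1.12 for GAS1 and -1.25 for CDON. Genes of the fibroblast marker list moved over the same interval in this culture of 1 cell line. Of 7 tested, 1 rose and 4 fell at 6 days (18.8% and 12.3% of all genes). The marker list summed to 60.7 to 63.4 CPM in DMSO and 35.8 to 38.3 CPM at 6 days. Any link to the fall of the receptor list was not tested. Of 8 neuroblastoma markers 3 rose and 2 fell.

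Of the 7 genes for ligands and their release, 5 were tested. SHH, the ligand best known in neural tissue, had no count in any culture library and at most 0.0442 CPM in a tumor, and IHH stayed at or below 0.314 CPM. DHH was the only ligand near 1 CPM, at 1.04 and 1.12 CPM in DMSO and 0.661 and 0.769 CPM at 6 days, which was not called. One of the 5 rose at 6 days, against 18.8% of all genes, namely SCUBE2, a secreted protein that releases ligand, from 0.344 and 0.409 CPM to 0.661 and 1.51 CPM (log2 1.48, adjusted p 0.00184), and its call was lost without ATRA 6 day replicate 2.

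The GLI genes moved apart. GLI3 (chromosome 7, 41960949 to 42264100, minus strand) was at 71.1 and 71.6 CPM in DMSO, 140 and 145 CPM after 1 day, 306 and 301 CPM after 3 days and 234 and 233 CPM after 6 days. It peaked at 3 days, and no groups overlapped. The rise was 2.02-fold at 1 day (log2 1.02 ± 0.029, edgeR adjusted p 7.33e-26), 4.35-fold at 3 days (2.12 ± 0.028) and 3.2-fold at 6 days (1.68 ± 0.028). The 1 day value sat at the 2-fold limit, and without ATRA 1 day replicate 2 it was 0.98 and not called. From 3 to 6 days it went down by 1.36-fold (log2 -0.44 ± 0.025, adjusted p 4.24e-18), under the limit.

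GLI2 (chromosome 2, 120735623 to 120992653, plus strand) went the other way. It was at 17.8 and 20.8 CPM in DMSO, 13.7 and 12.8 CPM after 1 day, 9.28 and 9.31 CPM after 3 days and 2.05 and 2.18 CPM after 6 days. Each time point lay below the one before. The log2 difference from DMSO was -0.52 ± 0.08 at 1 day, -1.02 ± 0.085 at 3 days and -3.22 ± 0.11 at 6 days (edgeR adjusted p 2.69e-06, 1.49e-12 and 9.48e-25), of which the last is 9.31-fold. The 3 day call was lost without DMSO replicate 2 (log2 -0.91).

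The ratio of GLI3 to GLI2 per kb of exon gathers both changes. It was 2.23 and 1.93 in DMSO, 5.71 and 6.34 after 1 day, 18.4 and 18.1 after 3 days and 63.9 and 59.9 after 6 days. In tumors it ran from 1.07 to 1.89 in controls and from 0.95 to 1.83 under RA. The culture ratio rose at every time point with no overlap, and the 2 tumor groups overlapped. RNA does not show how much GLI3 protein was full-length or cut to its repressor.

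GLI1 (chromosome 12, 57459785 to 57472268, plus strand), the target most often read as a sign of pathway activity, was near the limit of detection throughout. It was at 0.491 and 0.281 CPM in DMSO, 0.422 and 0.586 CPM after 1 day, 0.331 and 0.404 CPM after 3 days and 0.364 and 0.545 CPM after 6 days, from 9 to 21 counts per culture library. No comparison called it, and its SE of 0.32 to 0.55 on the log2 scale means that at this depth a difference of up to 2-fold could be missed. Tumors held 0.419 to 0.662 CPM in controls and 0.522 to 1.17 CPM under RA.

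SUFU (chromosome 10, 102503972 to 102633535, plus strand), the cytoplasmic inhibitor of GLI, was at 44.3 and 42.1 CPM in DMSO, 36.5 and 34 CPM after 1 day, 42.1 and 39.9 CPM after 3 days and 44.5 and 41.7 CPM after 6 days. The 1 day libraries were the lowest (log2 -0.28 ± 0.05, edgeR adjusted p 3.79e-05) and the 6 day libraries overlapped those of DMSO. As GLI3 rose against a level SUFU, SUFU per GLI3 per kb went from 1.25 and 1.18 in DMSO to 0.276 and 0.266 at 3 days and 0.381 and 0.358 at 6 days.

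**Figure D3:**
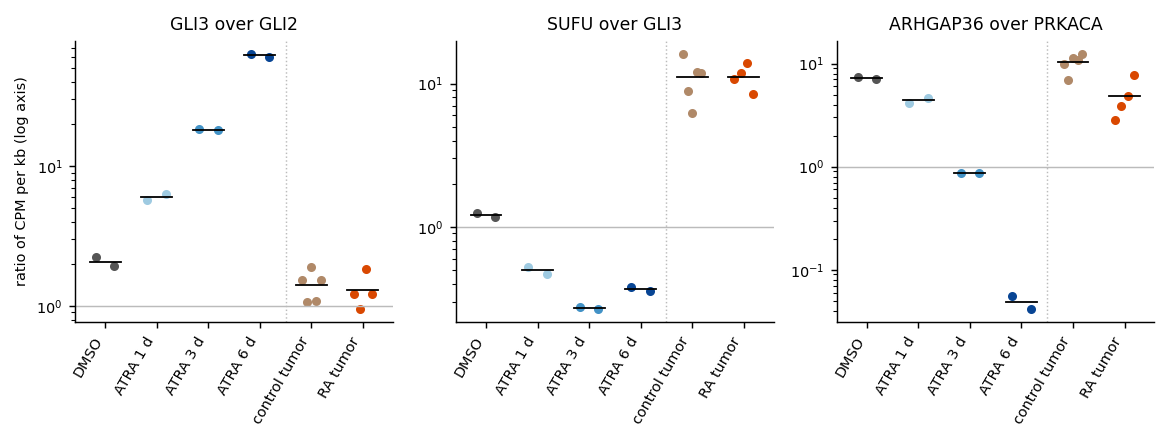
Ratios of CPM per kb of exon between pairs of members within each library (log axis), 1 point per library and a bar at the group mean, with a line at a ratio of 1. GLI3 over GLI2 climbs from about 2.08 in DMSO to 61.9 at 6 days, and ARHGAP36 over PRKACA goes from 7.22 to 0.0486.

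In the list of GLI factors and their cytoplasmic regulators, 2 of 12 tested genes rose and 1 fell at 6 days (18.8% and 12.3% of all genes), with a median of 0.035 against 0.041 over all genes. The second gene that rose was EVC, a protein of the cilium base that relays SMO to GLI, at 12.6 to 12.9 CPM in DMSO, 21.1 to 22.1 CPM at 1 day, 31.9 to 33.9 CPM at 3 days and 56.2 to 57.8 CPM at 6 days (log2 2.13, edgeR adjusted p 2.19e-28). Its partner EVC2 was at or below 0.177 CPM in every library and was not tested.

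Of 15 Hedgehog target genes, 10 were tested, and at 6 days 0 rose and 5 fell, against 12.3% of all genes called lower, with a median of -0.909 against 0.041 over all genes. They were SFRP1, a secreted Wnt antagonist, the survival gene BCL2, the Notch ligand JAG2, MYCN and PTCH1. SFRP1 went from 66.8 and 67.8 CPM to 11.9 and 12.2 CPM (log2 -2.52, edgeR adjusted p 1.9e-31) and BCL2 from 8.53 and 8.6 CPM to between 1.96 and 2.41 CPM (4.01-fold, adjusted p 9.44e-16). JAG2 and MYCN had log2 differences of -1.10 and -1.03. CCND1, a D-type cyclin, was not called, at 610 to 615 CPM in DMSO and 544 to 570 CPM at 6 days. Many of these genes answer to other pathways too, and FOXF1 and NKX2-2, which are more specific Hedgehog targets, had no count in any library.

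All 27 primary cilium genes were tested, and at 6 days 2 rose and 1 fell, against 18.8% and 12.3% of all genes, with a median of 0.219 against 0.041. TTBK2, the kinase that starts cilium growth, rose from between 94.9 and 96.6 CPM in DMSO to between 285 and 290 CPM at 6 days (log2 1.55). TULP3, which carries receptors into the cilium, fell from 38.3 and 38.4 CPM to between 17 and 17.6 CPM (log2 -1.18, edgeR adjusted p 1.22e-20).

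**Figure D4:**
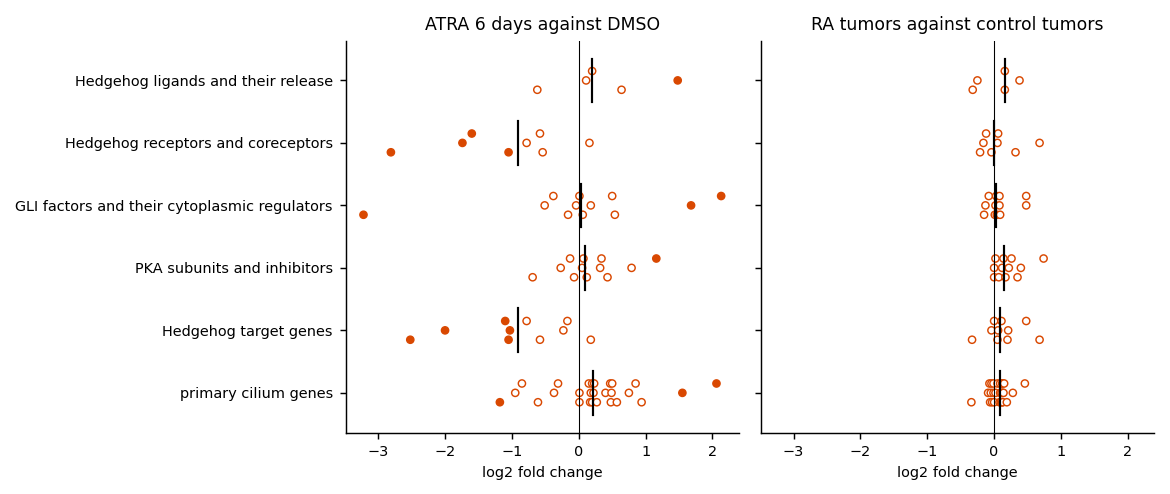
Log2 fold change of each tested gene of 6 Hedgehog-related lists at 6 days of ATRA (left) and in RA tumors (right), filled where called, with a black bar at the list's median. At 6 days the receptor list has 4 genes and the target list 5 genes filled below zero, and in tumors no gene is filled.

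Counted together, 1 of the 8 members other than ARHGAP36 was called at 1 day against 2.74% of all genes tested, 2 at 3 days against 7.87%, and 4 at 6 days against 31.2%. Between 3 days and 1 day 1 of the 8 others was called against 4.09% of all genes, namely GLI3 upward. Between 6 and 3 days 2 of the 8 others were called against 21.1%, namely GLI2 and SMO, both downward.

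In tumors, RA changed none of the 9 members by the call rule, where 0.289% of 21099 genes were called. At an unadjusted p under 0.05 the count was 1, ARHGAP36, where 15.4% of all genes passed, and DESeq2 called the same 1, where it called 0.603% of 19554 genes. The 8 others had log2 differences between -0.21 (SMO) and 0.48 (GLI1), and RA and control tumors overlapped for all 9 genes. GLI2 was at 1.03, 1.99, 1.49, 1.37 and 1.05 CPM in controls and 1.4, 1.58, 0.795 and 1.86 CPM under RA. GLI3 was at 2.81, 3.79, 5.03, 2.65 and 2.88 CPM in controls and 3.02, 2.69, 2.61 and 4.05 CPM under RA. Neither difference was called, at 0.03 ± 0.28 for GLI2 and -0.15 ± 0.22 for GLI3 on the log2 scale.

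The precision differed by gene. PTCH1, at 79.4 to 88.8 CPM in controls and 83.4 to 93.7 CPM under RA, had a log2 difference of 0.05 ± 0.062. HHIP, at 20.5 to 34 CPM in controls and 22.3 to 33.2 CPM under RA, had -0.04 ± 0.17. SUFU, at 15.5 to 22.7 CPM and 15.8 to 17.9 CPM, had -0.08 ± 0.11, and PRKACA had 0.07 ± 0.079. The 6 lists held no called gene in this comparison, with medians from 0.00495 (receptors) to 0.162 (ligands) against -0.008 over all genes. The neuroblastoma marker PHOX2A was the only one of 8 called in RA tumors (log2 1.02, edgeR adjusted p 0.0312). Fibroblast markers summed to 26.7 to 119 CPM in controls and 25.9 to 39.7 CPM under RA, and none of the list was called.

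The tumor effect differed from the 6 day effect in culture for 4 of the 8 members other than ARHGAP36, where 20.8% of 25787 genes differed. The differences of log2 effects, tumor minus culture, were 3.23 ± 0.32 for GLI2, -1.85 ± 0.23 for GLI3, 1.07 ± 0.089 for PTCH1 and 1.39 ± 0.27 for SMO (edgeR adjusted p 9.49e-08, 3.74e-06, 7.4e-09 and 0.000259). The retinoid, dose, duration, kit and host differ along with the setting. For tumors in which it measured drug, the study reports collection within weeks of the last dose. The interval for these RNA libraries is not given in the sources used here. For GLI2, GLI3 and SMO the control tumors were already at 5.03 CPM or less.

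Control tumors differed from DMSO cells in 6 of the 8 members other than ARHGAP36, where 42.9% of all genes were called and the median over all genes was 0.246 on the log2 scale. GLI3 was 20.7-fold lower in tumors (log2 -4.37 ± 0.14), SMO 19.8-fold (-4.31 ± 0.16) and GLI2 13.8-fold (-3.79 ± 0.19), with edgeR adjusted p of 8.25e-14, 2.37e-14 and 1.33e-12. SMO was at 1.67, 1.23, 2.46, 1.48 and 1.52 CPM in controls and 1.01, 1.32, 1.24 and 2.12 CPM under RA, so every tumor lay below the lowest culture library of 10.7 CPM. SUFU (2.45-fold) and PRKACA (2.36-fold) were also lower. HHIP was the only member called higher, at 22.4, 34, 33.6, 31.5 and 20.5 CPM in controls (log2 1.42 ± 0.2, adjusted p 1.03e-05).

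In the main fit ARHGAP36 and PTCH1 were lower in control tumors than in DMSO cells by less than 2-fold. PTCH1 was 1.58-fold lower (log2 -0.66 ± 0.06), and ARHGAP36 was at log2 -0.73 ± 0.29, given without a test since its DMSO libraries chose it. HHIP per PTCH1 per kb was 0.108 and 0.122 in DMSO and 0.348 to 0.612 in control tumors. Endothelial and leukocyte markers were higher in tumors, as given above. Of 8 neuroblastoma markers 2 were higher (DBH and TH) and 4 lower (GATA3, HAND2, ISL1 and PHOX2A), where 31.5% of all genes were called higher and 11.4% lower. The median was -0.939 against 0.246 over all genes. The part of other cells, of kit, of counting and of host in these differences was not tested.

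Per kb of exon, the order in DMSO cells was ARHGAP36 (74.2 CPM per kb), PRKACA (10.3), PTCH1 (7.76), SMO (6.97), SUFU (6.28), GLI3 (5.17), GLI2 (2.5), HHIP (0.892) and GLI1 (0.0847), and the ranges of neighbours did not meet. At 6 days GLI3 led at 16.9 CPM per kb, and ARHGAP36 was at 0.467. In control tumors ARHGAP36 again led at 44.7 CPM per kb, followed by PTCH1 (4.91) and PRKACA (4.35), whose ranges met. Exon length here is the union of all annotated exons, which lowers the value of genes with many transcripts.

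Within 500 kb of ARHGAP36 the annotation holds 17 other genes, of which 2, ENOX2 and IGSF1, had enough counts for a test. LINC01201, an annotated noncoding gene that starts 0.2 kb upstream, had no count in any library. IGSF1, an immunoglobulin-type membrane glycoprotein gene, lies with its start 520.6 kb downstream and its far end within the window. It was at 277 and 280 CPM in DMSO, 141 and 141 CPM after 1 day, 56.9 and 57.2 CPM after 3 days and 6.15 and 7.02 CPM after 6 days. Like ARHGAP36, it was lower at each later time without overlap, at log2 -0.96, -2.25 and -5.43 from DMSO.

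In tumors IGSF1 was at 109, 90.7, 117, 122 and 157 CPM in controls and 36.2, 53.5, 54.7 and 75.2 CPM under RA. The groups did not overlap, and the difference was called (log2 -1.12 ± 0.22, edgeR adjusted p 0.046). The call depended on the libraries and the setting. Leaving out 1 library at a time gave log2 -1.30 to -0.98, and the call was lost in 7 of the 9 cases, all but those without control replicate 2 or RA replicate 4. Without the filter on low counts it was also lost (adjusted p 0.0993), and by DESeq2 it held. Replicate 5 of the controls was the highest and replicate 1 of the RA tumors the lowest for both IGSF1 and ARHGAP36. ENOX2, a cell surface oxidase gene with its start at -155.1 kb, was at 15.4 and 16 CPM in DMSO and 8.69 and 7.98 CPM at 6 days (log2 -0.94, not called), and its tumor difference was log2 -0.28 (adjusted p 0.193).

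**Figure D5:**
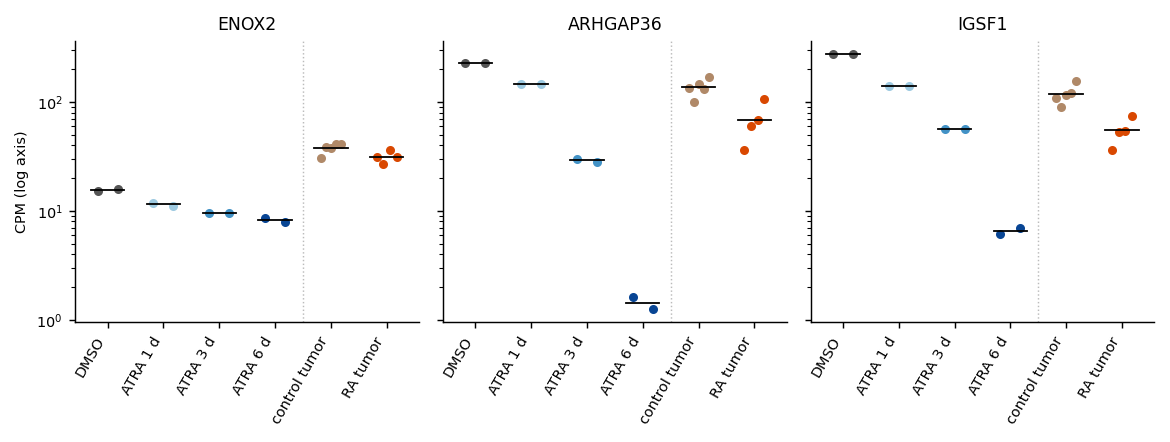
CPM (log axis) of ARHGAP36 and of the 2 tested genes near it on chromosome X in the 17 libraries, 1 point per library and a bar at the group mean. IGSF1 goes from 279 CPM in DMSO to 6.58 CPM at 6 days beside ARHGAP36, while ENOX2 goes from 15.7 to 8.34 CPM.

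The 5 genes whose log2 CPM over the 17 libraries was most like that of ARHGAP36 were RAD51C, a DNA repair gene (Pearson r 0.994), HNRNPU, a nuclear RNA binding protein (0.986), ODC1, the first enzyme of polyamine synthesis (0.983), TBC1D4, a regulator of membrane traffic (0.977), and OPRD1, the delta opioid receptor (0.977). The libraries share groups and kit, so r mostly describes the order of the 6 groups. Their changes were smaller than that of ARHGAP36. RAD51C went from 48 to 20.2 CPM from DMSO to 6 days and HNRNPU from 1230 to 754 CPM, while OPRD1 came nearest in size, from 109 to 3.47 CPM. Within the 9 tumors alone r was 0.916 for RAD51C and 0.443 for OPRD1. IGSF1 had an r of 0.968, with 19 of 25786 genes above it, and among the other members PTCH1 had the highest r (0.683) and GLI3 the lowest (-0.449).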

How the data were processed

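RNA-seq was analysed from 8 culture and 9 tumor libraries. The authors deposited expected counts per gene, estimated with RSEM 1.3.3 after trimming (Trim Galore 0.4.4) and alignment to hg38 (STAR 2.7.10a). The annotation release, the strand setting and any removal of mouse reads are not given in the sources used here. The expected counts were rounded to whole numbers here, and 92 spike-in rows at 0 in the culture table were left out. Positions and exon lengths were taken from GENCODE on hg38, which matched 60306 of 60662 genes.

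Genes were tested with edgeR 4.0.16 in R 4.3.3 (quasi-likelihood F test, TMM factors, filterByExpr with a minimum count of 10, Benjamini-Hochberg over all genes tested). There were 3 fits: culture (20237 genes), tumors (21099 genes), and all 17 libraries for comparisons across them (25787 genes). The call rule was a difference beyond 2-fold at an adjusted p below 0.05. The fits were tested on simulated data. No pair of libraries agreed within sampling noise. CPM used the TMM factors of all 17 libraries, without a pseudocount. The log2 CPM behind the correlations added a small prior count. CPM per kb divided by the exon union.

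The members, the 6 pathway lists and the 5 marker lists were chosen with earlier results of these data known. Named were all members, up to 5 called genes per list with the largest difference at 6 days or in RA tumors, any called at 1 day, the 5 genes most like ARHGAP36, and genes within 500 kb of it. Genes named outside this rule (PRKACB, PRKAR1B, SHH, IHH, DHH, EVC2, CCND1, FOXF1, NKX2-2, MSX2, AC010422.6, PKIB and the markers) were chosen after their values were seen. Some genes of the lists are not reported here by name. Alternatives were DESeq2 1.42.0 size factors, the DESeq2 Wald test, no filter on low counts, a block for replicate number and leaving out each library. For the tumor values of ARHGAP36 an exact permutation was added after seeing the data. Culture totals of 31607070 counts or more and tumor totals of 17266581 or more limit what can be detected in genes such as GLI1.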

Additional observations from a re-analysis of the deposited data

Results flagged for a closer look

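GLI2, GLI3, PTCH1 and SMO differed between settings in the response to retinoid, by a test of the difference itself. Retinoid, dose, duration, kit and host differed along with the setting, so their parts cannot be told apart. In control tumors GLI2, GLI3 and SMO were already at 5.03 CPM or less. The tumor RA effect minus the 6 day ATRA effect was 3.23 for GLI2, -1.85 for GLI3, 1.07 for PTCH1 and 1.39 for SMO on the log2 scale (edgeR adjusted p 9.49e-08, 3.74e-06, 7.4e-09 and 0.000259). In culture GLI2 fell by 3.22, PTCH1 by 1.05 and SMO by 1.60 and GLI3 rose by 1.68, while in tumors the values were 0.03, 0.05, -0.21 and -0.15 in the same order of GLI2, PTCH1, SMO and GLI3. In 1 of 18 checks of a tumor group, a sample stood far from the others: SUFU in control tumor replicate 1, at 22.7 CPM against 15.5 to 17.1 CPM in the other 4. Chance gives such a sample in about 1 of 20 groups. Without that library the SUFU difference between RA and control tumors was 0.03 on the log2 scale, against -0.08 with it.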

How the results depend on the processing

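Of 730 recomputed values of members, 693 kept their direction and their side of the call. Another 27 changed sign, all of values that were not called, with the largest main value at 0.26. With 1 library left out, log2 differences of uncalled members ran from -0.03 to 0.15 (HHIP, 1 day), -0.38 to 0.42 and -0.15 to 0.64 (GLI1, 3 and 6 days), -0.09 to 0.01 (SUFU, 6 days), -0.05 to 0.10 (PRKACA, 3 days against 1 day), and -0.05 to 0.05 (SUFU) and -0.09 to 0.49 (GLI1) for 6 days against 3. In RA against control tumors the ranges were -0.13 to 0.22 (GLI2), -0.31 to 0.03 (GLI3), -0.12 to 0.03 (SUFU) and -0.13 to 0.04 (HHIP), and for the tumor effect minus the 6 day effect -0.20 to 0.59 (GLI1) and -0.11 to 0.04 (SUFU). Without the filter on low counts SUFU changed sign at -0.04 (6 days against 3) and 0.03 (tumor minus 6 day effect). The exact permutation for ARHGAP36 in RA tumors (-1.10) gave an unadjusted p and thus no call. ARHGAP36 in RA tumors was called by DESeq2 (-1.01), and ran from -1.31 to -0.81 with 1 library left out. Members called then ran from 0 to 1 at 1 day and from 0 to 1 in RA tumors, where DESeq2 called 1.

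Over all genes, DESeq2 called 337 in place of 554 at 1 day, 541 in place of 827 for 3 days against 1 day and 118 in place of 61 in RA tumors, where no filter gave 125. Leaving out 1 library gave 24 to 160 there, the highest without RA replicate 4, and the lowest without RA replicate 2. For lists, ligand genes called at 6 days ran from 0 to 1 and PKA genes called in RA tumors from 0 to 1, with PKIB called without RA replicate 4. Same-numbered libraries did not deviate together, with correlations of -0.025 to 0.012 in culture and -0.334 to 0.108 in tumors, so the numbers do not pair them. With replicate number as a block, 12 genes were called in RA tumors, GLI2 there was at -0.09, ARHGAP36 in control tumors against DMSO was at -1.16, and IGSF1 in RA tumors had an adjusted p of 0.0608. The block moved no other count by over 1.5 times. The cause of these changes was not tested. Another scaling shifted the median of control tumors against DMSO from 0.246 to 0.287 and changed no call of a member.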

Other observations

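PKIB, an inhibitor of PKA outside the 9 members, was at 183 to 185 CPM in DMSO cells, 177 to 182 CPM at 6 days and 3.37 to 5.76 CPM in control tumors (log2 -5.38 against DMSO, edgeR). It was chosen after its values were seen, and RA tumors were at 3.04 to 9.57 CPM.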
